A study of Mus musculus with 6 samples.

Results

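The 54 genes described here encode the machinery with which a cell enters mitosis, builds a spindle, attaches chromosomes to it and divides. They were taken by name from a list of mitosis, spindle and kinetochore genes, and all 54 had a row among the 55401 gene identifiers of the count table. Their RNA was measured by bulk RNA sequencing in 6 libraries, 3 labelled PEox and 3 labelled Vehicle. Per the labels, all 6 hold RNA of group 3 innate lymphoid cells (ILC3s) from the lamina propria of the small intestine, the mice were wild type (pups, in the protocol), and PEox or vehicle was given before collection. ILC3s are lymphocytes without rearranged antigen receptors that guard mucosal barriers through cytokines such as interleukin 22. PEox is not spelled out in the labels; in work on ferroptosis, a death of cells through lipid peroxidation, the abbreviation usually stands for oxidised phosphatidylethanolamine. The sources used here give no dose, no time of exposure and no number of animals behind a library, so p-values measure the spread between libraries, which may be technical.

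Although the cell type label says ILC3s, the protocol speaks of epithelial cells, sorted as positive for EpCAM and negative for CD45. Markers were therefore read first, in CPM (counts scaled to library depth). Il22, the cytokine gene typical of ILC3s, had 2539, 2554 and 2445 CPM in PEox libraries 1 to 3 and 6787, 6724 and 6660 CPM in Vehicle libraries 1 to 3. Other genes that ILC3s express went in both directions: Ccr6, Id2 and Gata3 were lower in PEox, at -1.27, -0.83 and -0.35 (log2 fold change), Il17f and Kit were higher, at 0.75 and 0.91, and Il7r, Ahr, Il23r and Il1r1 did not pass. The 10 epithelial markers, among them Epcam, summed to 58.5 to 67.3 CPM in PEox and 97.9 to 111.5 CPM in Vehicle, and the epithelial factor gene Cdx2 had a count of 0 in all 6 libraries. Depth was 56252806 to 66849230 counts per library, so that 3 counts, taken as the floor where a gene has none, equal 0.0472 to 0.0529 CPM; floors cover counting error only.

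Division of a cell is driven by cyclin-dependent kinase 1 (Cdk1), which cyclins A and B switch on once Cdc25 phosphatases remove its inhibitory phosphates. Polo-like and Aurora kinases then mature the centrosomes, kinesin motors and their partners shape the spindle, and kinetochores couple centromeres to microtubules under the watch of the spindle checkpoint. When all chromosomes are attached, the anaphase-promoting complex (APC/C) marks cyclin B and securin for destruction, separase opens cohesin, and the cytoplasm is cleaved. Many of these genes are transcribed in waves that peak in G2 and mitosis, so their summed RNA is widely used as a readout of how many cells are cycling; others serve in interphase as well. Tissue ILC3s of adult mice are known to divide slowly, while those of young animals expand.

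In the PEox libraries 46 of the 54 genes were lower than in Vehicle, 0 were higher and 8 did not pass the test (quasi-likelihood test of edgeR, p-values adjusted over 18253 genes by Benjamini and Hochberg, threshold 0.05). Of all tested genes 37.1% were called, 18.8% lower and 18.3% higher. With library size scaling, which moved the median log2 fold change of all genes to 0.14, 42 of the 54 were lower and 0 higher, and over all genes the calls were 2715 lower and 4411 higher, against 3438 and 3337 with the scaling used here. The median log2 fold change of the 54 genes, PEox over Vehicle, was -2.45, beside 0.001 for all tested genes. A fall of at least 1 on the log2 scale was called for 40 members, where 6.98% of all tested genes met that rule, and a fall of at least 2 for 33 members, where 2.59% did. In 50 of the 54 genes every PEox library lay under every Vehicle library, which held for 26.5% of all tested genes. All 54 passed the filter on low counts, but 5 of them were under its minimum of 0.171 CPM in at least 1 PEox library, and none in a Vehicle library. Espl1 and Kif14 were the 2 members under it in all PEox libraries. They passed through their Vehicle counts alone, so the Vehicle level decided that they were tested. Less RNA of the 54 genes per cell and fewer cells in division cannot be told apart in bulk RNA.

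**Figure D1:**
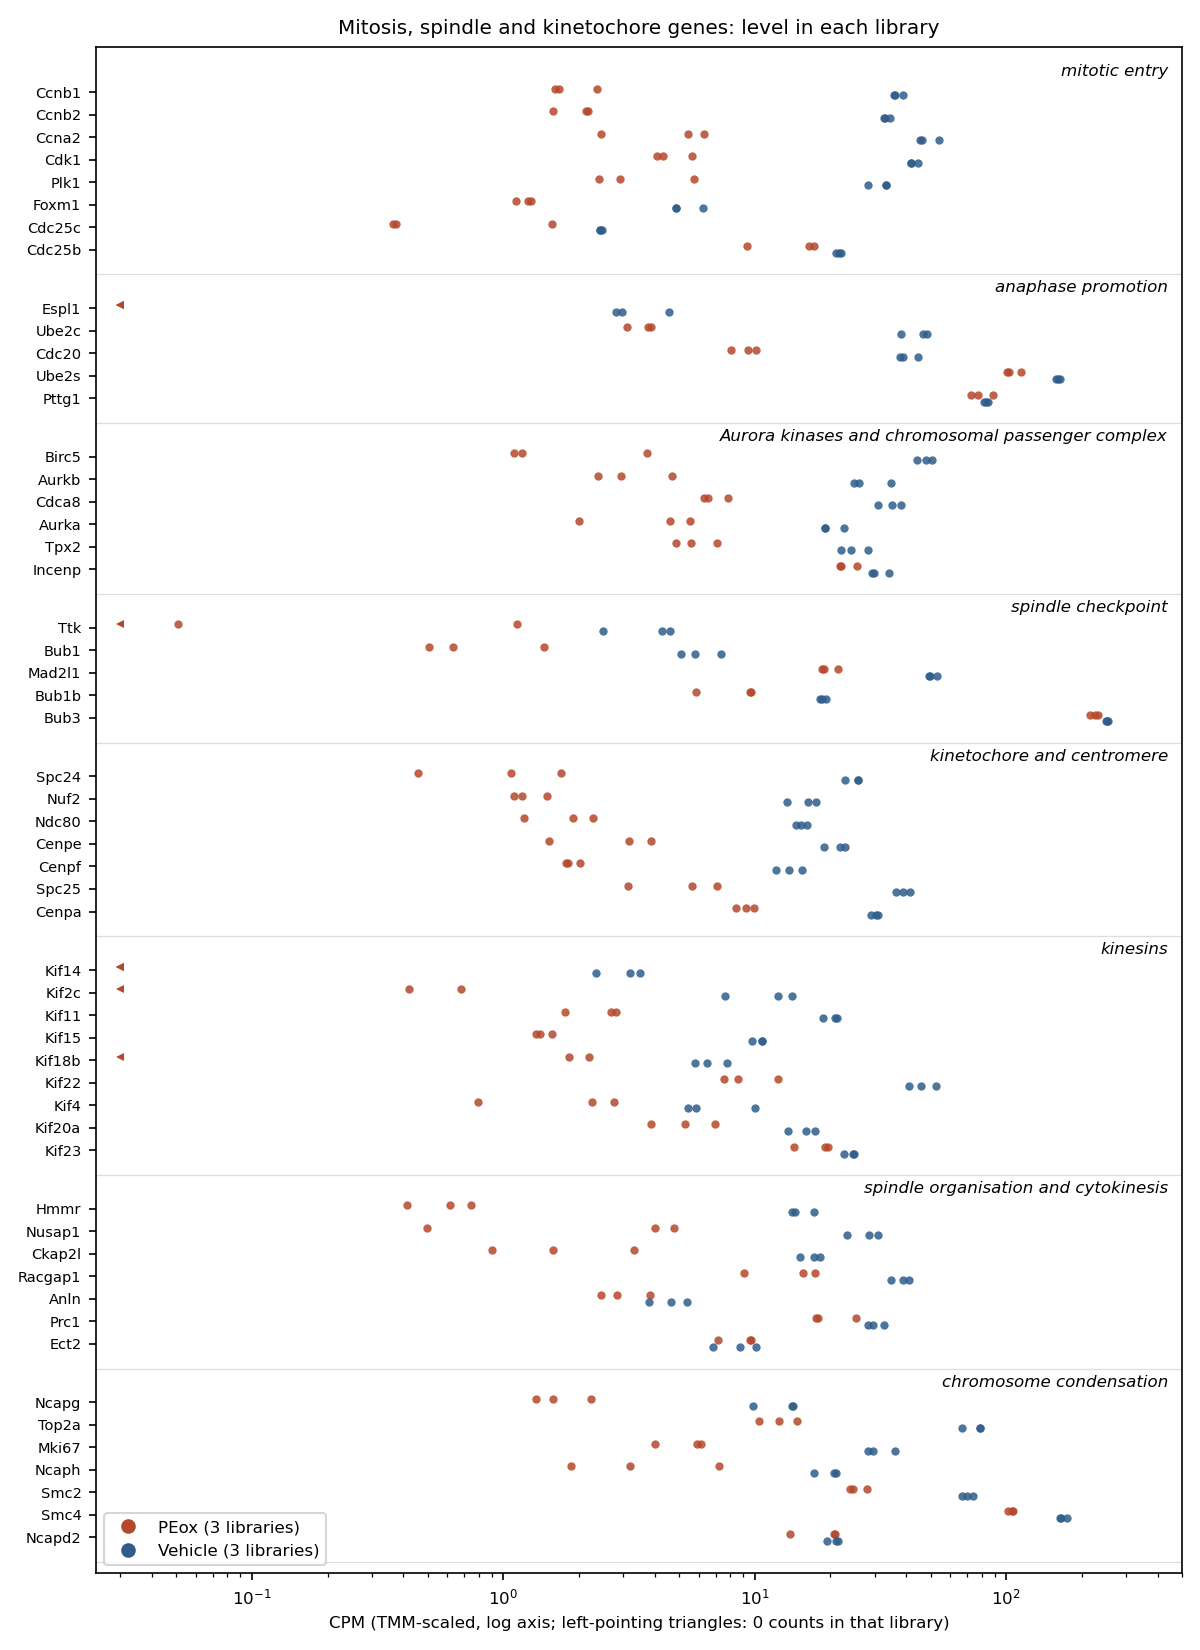
Level of each of the 54 genes in each library (CPM, log axis; red points PEox, blue points Vehicle, triangles at the left edge a count of 0), grouped by role. In 50 genes the PEox points lie left of all Vehicle points; the exceptions are Pttg1, Anln, Ect2 and Ncapd2.

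Summed over the 54 genes, the level was 819.7, 822.0 and 808.9 CPM in PEox libraries 1 to 3 and 1896, 1921 and 1924 CPM in Vehicle libraries 1 to 3. The groups did not overlap, and the difference of -1.23 on the log2 scale had an exact permutation p of 0.1, two-sided, the smallest that 3 against 3 libraries allow. Much of the RNA that was left belonged to a few genes. Per kilobase of exon, the order of levels in Vehicle was led by Pttg1 with 41.6 ± 0.816, Bub3 with 35.8 ± 0.337, Smc4 with 32.1 ± 1.13 and Ube2s with 31.3 ± 0.465 CPM per kilobase (SD, n = 3), of which Smc4 and Ube2s did not differ beyond their spread; Ccnb2 and Cdc20 came next with 21.8 ± 0.681 and 21.6 ± 1.94. Those 4 genes, singled out after their values were seen, held 62.1% to 64.5% of the summed CPM in PEox and 34.2% to 34.8% in Vehicle. The other 50 genes summed to 303 ± 10.7 CPM in PEox and 1252 ± 13.4 CPM in Vehicle (SD, n = 3 each), so that 24.2% of the Vehicle level was left. At the low end of the order stood Kif14 and Espl1, with 0.291 and 0.393 CPM per kilobase in Vehicle.

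**Figure D2:**
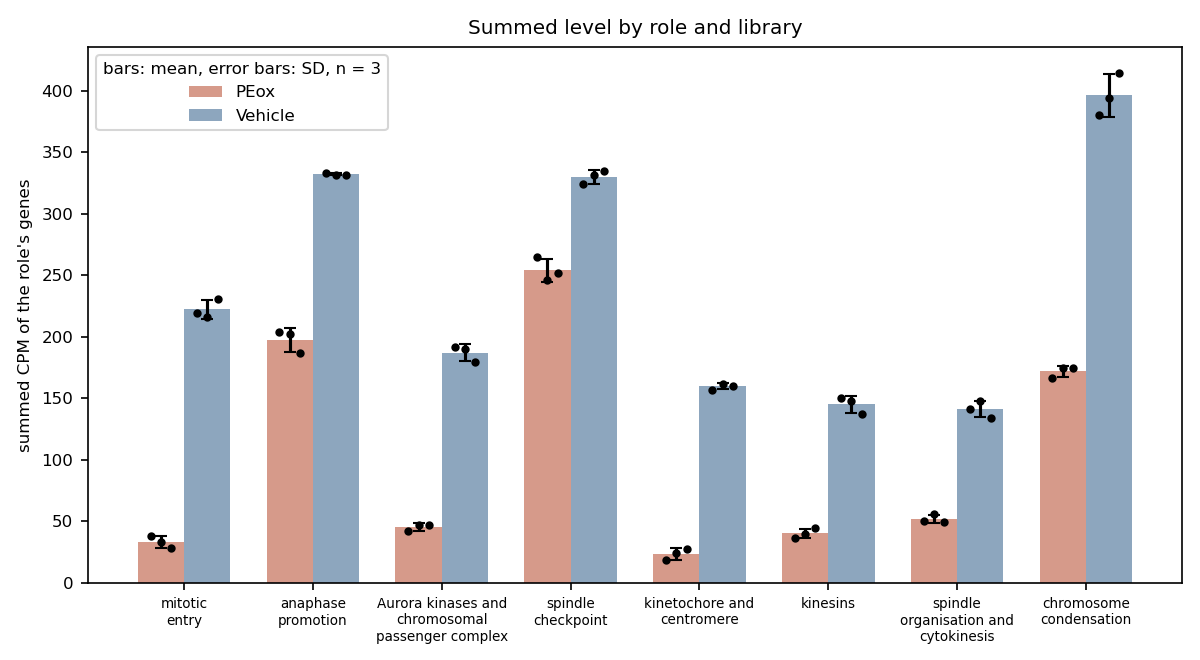
Summed CPM of the genes of each role (bars mean, error bars SD, points the 3 libraries of a group). Kinetochore and mitotic entry genes kept 14.6% and 15.0% of the Vehicle sum in PEox, and spindle checkpoint genes, which include the abundant Bub3, kept 76.9%.

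Genes of this kind are known to carry a cell cycle homology region (CHR), a short promoter element bound by the MuvB complex, near the transcription start, often with CCAAT boxes, which bind NF-Y, upstream of it. RefSeq promoters (build GRCm38.p6), each 300 bases from 250 before to 50 after a start, were found for 45 of the 54 genes, as 48 entries; Tpx2, Aurkb, Spc24, Ccna2, Smc4, Cdc25c, Incenp, Kif20a and Foxm1 had no entry. The letters TTTGAA or TTCGAA were searched on both strands for the CHR and CCAAT on both strands for the CCAAT box. A CHR match lay in 77.1% of the members' promoters, beside 17.9% of all 32851 promoters in the set and 12.5% of those of other tested genes. All 48 matches in members read TTTGAA, and a match overlapped a CCAAT match in 1 promoter. CCAAT was present in 77.1% of the members' promoters and 37.4% of all promoters, and both motifs together in 68.8% and 7.0%. With the match within 60 bases before to 30 after the start, the shares were 60.4% and 4.9%. A match is a description of the letters and not of binding.

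Shown here are the promoters of 5 genes that fell, for which CHR and CCAAT matches in the letters are shared, and of Ect2 and Bub3, which carry the same letters and changed little or did not pass the test. Each runs 5′ to 3′ on the strand of its gene in GRCm38.p6, with matches to either motif in capitals (ATTGG is CCAAT and TTCAAA is TTTGAA on the other strand).
Cdk1 (chr10:69352863-69353162, minus strand): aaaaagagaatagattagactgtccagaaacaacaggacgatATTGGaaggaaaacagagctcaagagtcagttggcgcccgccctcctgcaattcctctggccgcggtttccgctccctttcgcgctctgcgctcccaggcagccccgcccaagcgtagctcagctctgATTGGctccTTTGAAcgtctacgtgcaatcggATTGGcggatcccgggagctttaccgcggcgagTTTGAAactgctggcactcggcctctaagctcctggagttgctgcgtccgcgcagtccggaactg
Ccnb2 (chr9:70421505-70421804, minus strand): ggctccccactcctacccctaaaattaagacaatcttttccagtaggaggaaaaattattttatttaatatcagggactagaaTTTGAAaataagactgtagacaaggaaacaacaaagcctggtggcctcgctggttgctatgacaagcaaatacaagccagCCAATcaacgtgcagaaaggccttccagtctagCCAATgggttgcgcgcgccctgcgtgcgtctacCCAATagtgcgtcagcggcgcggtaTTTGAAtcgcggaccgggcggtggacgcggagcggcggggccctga
Plk1 (chr7:122159185-122159484, plus strand): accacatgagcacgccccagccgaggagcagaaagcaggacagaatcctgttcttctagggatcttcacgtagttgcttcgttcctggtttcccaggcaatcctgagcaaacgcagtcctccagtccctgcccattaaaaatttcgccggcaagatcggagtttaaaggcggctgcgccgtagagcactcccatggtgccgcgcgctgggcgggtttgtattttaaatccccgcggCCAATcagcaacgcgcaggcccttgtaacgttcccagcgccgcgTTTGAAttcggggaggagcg
Cdc20 (chr4:118437294-118437593, minus strand): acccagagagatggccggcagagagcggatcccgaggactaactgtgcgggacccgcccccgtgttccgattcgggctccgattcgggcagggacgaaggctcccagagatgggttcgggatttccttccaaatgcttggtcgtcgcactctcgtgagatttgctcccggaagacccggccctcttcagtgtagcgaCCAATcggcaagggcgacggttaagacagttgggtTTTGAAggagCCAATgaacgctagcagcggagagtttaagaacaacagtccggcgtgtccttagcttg
Hmmr (chr11:40733388-40733687, minus strand): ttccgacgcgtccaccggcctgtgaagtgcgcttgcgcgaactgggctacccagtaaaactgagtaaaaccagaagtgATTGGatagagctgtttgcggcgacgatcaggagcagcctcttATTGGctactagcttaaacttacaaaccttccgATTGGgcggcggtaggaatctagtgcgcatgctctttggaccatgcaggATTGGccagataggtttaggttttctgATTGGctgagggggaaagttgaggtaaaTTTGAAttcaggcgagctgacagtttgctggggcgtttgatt
Ect2 (chr3:27153829-27154128, minus strand): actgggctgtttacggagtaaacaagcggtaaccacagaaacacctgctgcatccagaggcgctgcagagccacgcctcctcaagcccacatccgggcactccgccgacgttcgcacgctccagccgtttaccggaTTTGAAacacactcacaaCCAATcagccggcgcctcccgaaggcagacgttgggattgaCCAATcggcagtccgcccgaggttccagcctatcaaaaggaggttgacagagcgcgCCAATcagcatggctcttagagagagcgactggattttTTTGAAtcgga
Bub3 (chr7:131560120-131560419, plus strand): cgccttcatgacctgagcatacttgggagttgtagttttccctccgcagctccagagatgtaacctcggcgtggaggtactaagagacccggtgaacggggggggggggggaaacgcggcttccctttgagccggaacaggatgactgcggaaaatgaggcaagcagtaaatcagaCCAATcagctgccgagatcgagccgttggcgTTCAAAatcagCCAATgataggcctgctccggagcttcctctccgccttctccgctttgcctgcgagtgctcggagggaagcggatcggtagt

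How far the members fell was compared by CHR match and not by CCAAT match, and the differences were not tested. The 34 genes with a CHR match had a median log2 fold change of -2.57 and the 11 genes without one -2.81. Split by a CHR match in the narrower window near the start, the order was the other way. The median was -2.71 for the 28 genes with such a match and -2.55 for the 17 without. Birc5, Ccnb1 and Nuf2 had no CHR match and were among the lowest, at -4.57, -4.29 and -3.64. Ect2, Ncapd2 and Bub3 had a CHR match and lay at 0.04, -0.16 and -0.16. No match says only that these letters were not in the window.

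**Figure D3:**
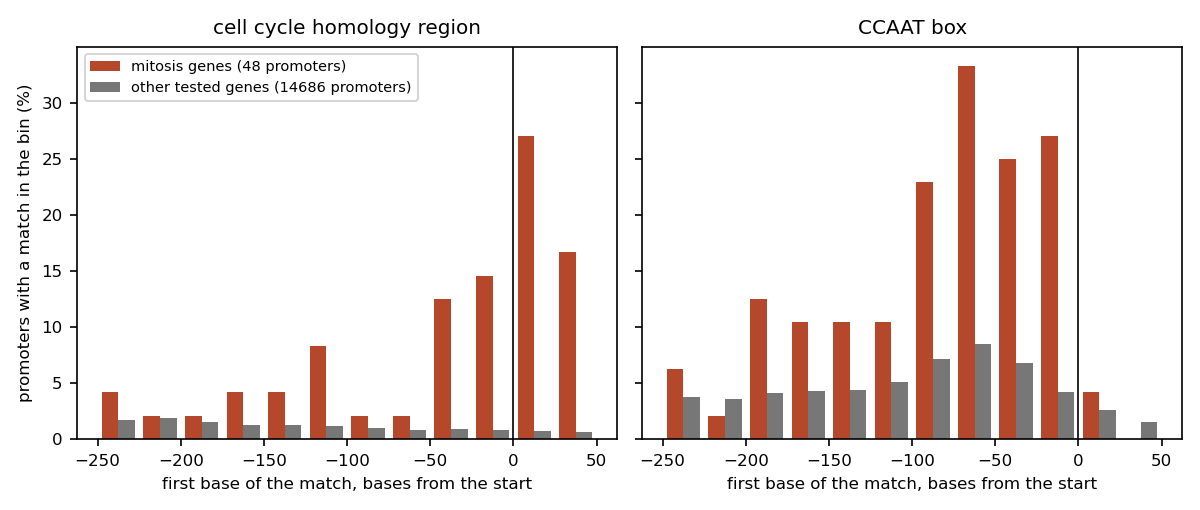
Share of promoters with a CHR match (left) or a CCAAT match (right) that begins in each bin of 25 bases, by distance from the transcription start, for 48 promoters of the mitosis genes (red) and 14686 promoters of other tested genes (grey). In the mitosis genes CHR matches are most frequent from 0 to 25 bases after the start (27.1% of promoters, against 0.76%), and CCAAT matches from 75 to 50 bases before it (33.3%, against 8.49%).

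The genes of mitotic entry fell furthest in their cyclins. Ccnb1, which encodes cyclin B1, had 1.67, 2.37 and 1.603 CPM in PEox libraries 1 to 3, against 35.7, 38.8 and 36.1 CPM in Vehicle (log2 fold change -4.29 ± 0.18, SE; edgeR adjusted p = 2.05e-06). Ccnb2, for cyclin B2, had 1.58, 2.13 and 2.16 CPM in PEox and 34.5, 32.5 and 32.9 CPM in Vehicle (-4.09 ± 0.16; edgeR adjusted p = 1.64e-06). Both B cyclins were thus near 2 CPM in every PEox library and above 32 CPM in every Vehicle library. Ccna2, the cyclin A gene that acts from S phase on, had 5.44, 2.44 and 6.28 CPM in PEox and 45.6, 46.1 and 53.8 CPM in Vehicle (-3.36 ± 0.31; edgeR adjusted p = 8.88e-05). Their kinase partner Cdk1 stood at 5.64, 4.09 and 4.33 CPM in PEox and at 41.8, 41.7 and 44.6 CPM in Vehicle (-3.19 ± 0.15; edgeR adjusted p = 3.45e-06). The PEox values of Cdk1 were close together and far from the Vehicle range. Plk1, the polo-like kinase that promotes entry and centrosome maturation, fell by 3.10 ± 0.31 (log2; edgeR adjusted p = 0.000135), with 5.73, 2.40 and 2.92 CPM in PEox and 33.2, 28.1 and 33.4 CPM in Vehicle. Foxm1, the transcription factor that activates many genes of this set late in the cycle, fell by 2.13 ± 0.25 (edgeR adjusted p = 0.000323) at levels of 1.22 ± 0.0877 CPM in PEox and 5.33 ± 0.794 CPM in Vehicle (SD, n = 3 each).

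The phosphatases that release Cdk1 did not pass the test, although no PEox library reached the Vehicle range. Cdc25b had 16.5, 17.3 and 9.35 CPM in PEox and 21.1, 22.0 and 21.5 CPM in Vehicle (log2 fold change -0.58 ± 0.22, SE; edgeR adjusted p = 0.0718); its adjusted p was 0.0471 without PEox library 2 and 0.0479 without PEox library 3. Cdc25c was low, with 0.374, 1.56 and 0.364 CPM in PEox and 2.42, 2.42 and 2.46 CPM in Vehicle (-1.67 ± 0.60; edgeR adjusted p = 0.0616). Library 2 was the high PEox library for Cdc25c, and without it the fold change was -2.72 (edgeR adjusted p = 0.00168). With all libraries, Cdc25c was called lower by DESeq2 (DESeq2 adjusted p = 0.0279) and limma-voom (limma-voom adjusted p = 0.0156). A block for replicate number gave the same call (edgeR adjusted p = 0.0445).

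Genes that drive anaphase ranged from no reads to nearly equal levels. Espl1, which encodes separase, the protease that cuts cohesin, had a count of 0 in all 3 PEox libraries and 4.57, 2.96 and 2.80 CPM in Vehicle, at least 68.2-fold lower when 3 counts are set as the floor of each PEox library (edgeR adjusted p = 0.000122). Espl1 passed the filter on low counts through Vehicle alone. Ube2c, the ubiquitin-conjugating enzyme that starts chains for the APC/C, had 3.11, 3.76 and 3.85 CPM in PEox, against 38.1, 48.5 and 46.5 CPM in Vehicle (log2 fold change -3.63 ± 0.15, SE; edgeR adjusted p = 2e-06). Cdc20, the APC/C activator of mitosis, fell by 2.14 ± 0.13 (edgeR adjusted p = 1.11e-05), with 10.1, 9.41 and 8.05 CPM in PEox and 44.6, 38.9 and 37.8 CPM in Vehicle. These 3 genes were low in every PEox library. Ube2s, which extends the chains, fell much less, by 0.61 ± 0.063 (edgeR adjusted p = 0.000164), from a high level: 114.0, 100.5 and 102.2 CPM in PEox and 160.8, 158.3 and 163.1 CPM in Vehicle. Pttg1, which encodes securin, the inhibitor of separase, did not pass, with 76.9, 88.3 and 72.2 CPM in PEox and 84.99, 82.9 and 81.8 CPM in Vehicle (-0.07 ± 0.083; edgeR adjusted p = 0.565). Its groups overlapped, and its sign turned to 0.06 under library size scaling and to 0.20 with the trend on transcript length and GC content removed. Securin RNA was therefore present in PEox at 95.1% of the Vehicle mean while reads of separase were at 0.

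All 6 genes of the Aurora kinases and the chromosomal passenger complex were lower. Birc5, the survivin gene, fell furthest, with 3.72, 1.18 and 1.11 CPM in PEox and 44.4, 50.5 and 48.0 CPM in Vehicle (log2 fold change -4.57 ± 0.44, SE; edgeR adjusted p = 0.000105). Aurkb, the kinase of the complex, had 2.94, 4.69 and 2.38 CPM in PEox and 34.7, 24.8 and 26.0 CPM in Vehicle (-3.10 ± 0.27; edgeR adjusted p = 6.79e-05). Cdca8, for borealin, fell by 2.34 ± 0.14 (edgeR adjusted p = 1.1e-05). Incenp, the scaffold on which the other subunits meet, fell by only 0.42 ± 0.12 (edgeR adjusted p = 0.0203), with 21.9, 22.0 and 25.6 CPM in PEox and 34.3, 29.3 and 29.7 CPM in Vehicle. That call was lost without PEox library 1 (edgeR adjusted p = 0.0549), PEox library 2 (0.0528) or Vehicle library 1 (0.0889), and under library size scaling (0.0861). The fitted falls of these 4 partners of 1 complex ran from 0.42 for Incenp to 4.57 for Birc5. The differences between them were not tested. Aurka, the spindle pole kinase, dropped by 2.32 ± 0.34 and its activator Tpx2 by 2.08 ± 0.18, at 4.04 ± 1.83 and 5.85 ± 1.12 CPM in PEox and 20.2 ± 2.16 and 24.8 ± 3.19 CPM in Vehicle (SD, n = 3 each).

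Among spindle checkpoint genes the kinase Bub1 fell furthest of those that passed, with 0.629, 0.508 and 1.45 CPM in PEox and 5.10, 5.77 and 7.35 CPM in Vehicle (log2 fold change -2.81 ± 0.43, SE; edgeR adjusted p = 0.00127). Mad2l1, the gene of the Mad2 protein that captures Cdc20, fell by 1.37 ± 0.097 (edgeR adjusted p = 2.24e-05), with 21.4, 18.9 and 18.5 CPM in PEox and 49.5, 49.5 and 52.9 CPM in Vehicle. Bub1b, for the inhibitor BubR1, dropped by 1.16 ± 0.20 (edgeR adjusted p = 0.00269), and its PEox values of 9.65, 9.58 and 5.82 CPM lay under the Vehicle values of 18.2, 18.5 and 19.2 CPM. Ttk, the kinase Mps1 that starts the signal, did not pass (-3.26 ± 1.25; edgeR adjusted p = 0.0755): its counts were 3, 67 and 0 in PEox libraries 1 to 3 and 158, 243 and 290 in Vehicle. Without PEox library 2, which held nearly all the PEox reads of Ttk, the edgeR adjusted p was 0.000784. With all libraries, Ttk was called lower by limma-voom (limma-voom adjusted p = 0.0234) and with a block for replicate number (edgeR adjusted p = 0.0401). Bub3, the adaptor that recruits Bub1 and BubR1 and that cells also use outside mitosis, was the highest member of the set in CPM, with 232.7, 215.7 and 225.9 CPM in PEox and 248.6, 253.3 and 250.9 CPM in Vehicle. It was called lower by 0.16 ± 0.047 (edgeR adjusted p = 0.0286), but the call was lost without PEox library 2 (edgeR adjusted p = 0.0844) and without Vehicle library 1 (0.072), 2 (0.101) or 3 (0.0641). The call was also lost with a block for replicate number (edgeR adjusted p = 0.059), and under library size scaling the fold change was -0.02.

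All 7 kinetochore and centromere genes were lower, and no PEox library reached the Vehicle range in any of them. The outer kinetochore is bound to microtubules by the Ndc80 complex, whose 4 subunits are all in the set. Spc24 had 1.07, 0.457 and 1.70 CPM in PEox and 22.8, 25.7 and 25.8 CPM in Vehicle (log2 fold change -4.52 ± 0.40, SE; edgeR adjusted p = 6.86e-05). Nuf2 had 1.19, 1.10 and 1.49 CPM in PEox and 17.6, 16.3 and 13.5 CPM in Vehicle (-3.64 ± 0.21; edgeR adjusted p = 9.11e-06). Ndc80 itself had 1.21, 2.27 and 1.90 CPM in PEox and 16.1, 15.2 and 14.6 CPM in Vehicle (-3.09 ± 0.25; edgeR adjusted p = 4.53e-05). The subunit with the most RNA left was Spc25, at 3.14, 5.62 and 7.09 CPM in PEox and 36.3, 38.7 and 41.4 CPM in Vehicle (-2.88 ± 0.27; edgeR adjusted p = 9.02e-05). Cenpe, a kinetochore motor, and Cenpf, a large coiled-coil protein of the outer plate, dropped by 2.89 ± 0.32 and 2.88 ± 0.19. Cenpa, the histone variant that marks centromeres, fell least of the group, by 1.71 ± 0.12 (edgeR adjusted p = 1.94e-05), with 8.43, 9.20 and 9.95 CPM in PEox and 29.0, 31.0 and 30.4 CPM in Vehicle.

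Of the 9 kinesin genes 8 were lower. Kif14, a motor of cytokinesis, had a count of 0 in all 3 PEox libraries and 3.51, 3.19 and 2.34 CPM in Vehicle, at least 59.7-fold lower with the same floor per library (edgeR adjusted p = 0.000128). Kif14, too, passed the filter on low counts through Vehicle alone. Kif2c, the depolymerase MCAK that corrects faulty attachments, had 0.680, 0.423 and 0 CPM in PEox and 14.0, 12.4 and 7.62 CPM in Vehicle (log2 fold change -4.95 ± 0.85, SE; edgeR adjusted p = 0.00237). Kif11, the Eg5 motor that pushes spindle poles apart, had 2.80, 1.76 and 2.69 CPM in PEox and 18.8, 21.3 and 20.8 CPM in Vehicle (-3.07 ± 0.21; edgeR adjusted p = 1.95e-05). In these 3 motors the PEox libraries were all far under the Vehicle range. Kif15, a motor that can stand in for Eg5, dropped by 2.85 ± 0.19, and the chromokinesin Kif22 by 2.29 ± 0.20. Kif4, the other chromokinesin, dropped by 1.87 ± 0.47 (edgeR adjusted p = 0.0138), a call lost without Vehicle library 3 (-1.54; edgeR adjusted p = 0.0638). Kif20a, a motor of the central spindle, dropped by 1.54 ± 0.23; 29.3% of its exonic bases overlap Cdc23 on the opposite strand, which was higher in PEox, and the sources do not say whether counting used strand. Kif18b did not pass (-2.32 ± 1.02; edgeR adjusted p = 0.117), with 107, 0 and 133 counts in PEox and 368, 441 and 408 in Vehicle. Its edgeR adjusted p was 0.002 without PEox library 2, and limma-voom called Kif18b lower with all libraries (limma-voom adjusted p = 0.038). Kif23, a subunit of centralspindlin, fell least, by 0.44 ± 0.14 (edgeR adjusted p = 0.0423), with 14.3, 19.1 and 19.6 CPM in PEox and 22.7, 24.9 and 24.6 CPM in Vehicle. That call did not hold without PEox library 1 (edgeR adjusted p = 0.0725), without Vehicle library 1 (0.0838), 2 (0.136) or 3 (0.118), or under library size scaling (0.14). It was also lost with no low count filter (edgeR adjusted p = 0.0524) and with the trend on transcript length and GC content removed (0.0537).

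**Figure D4:**
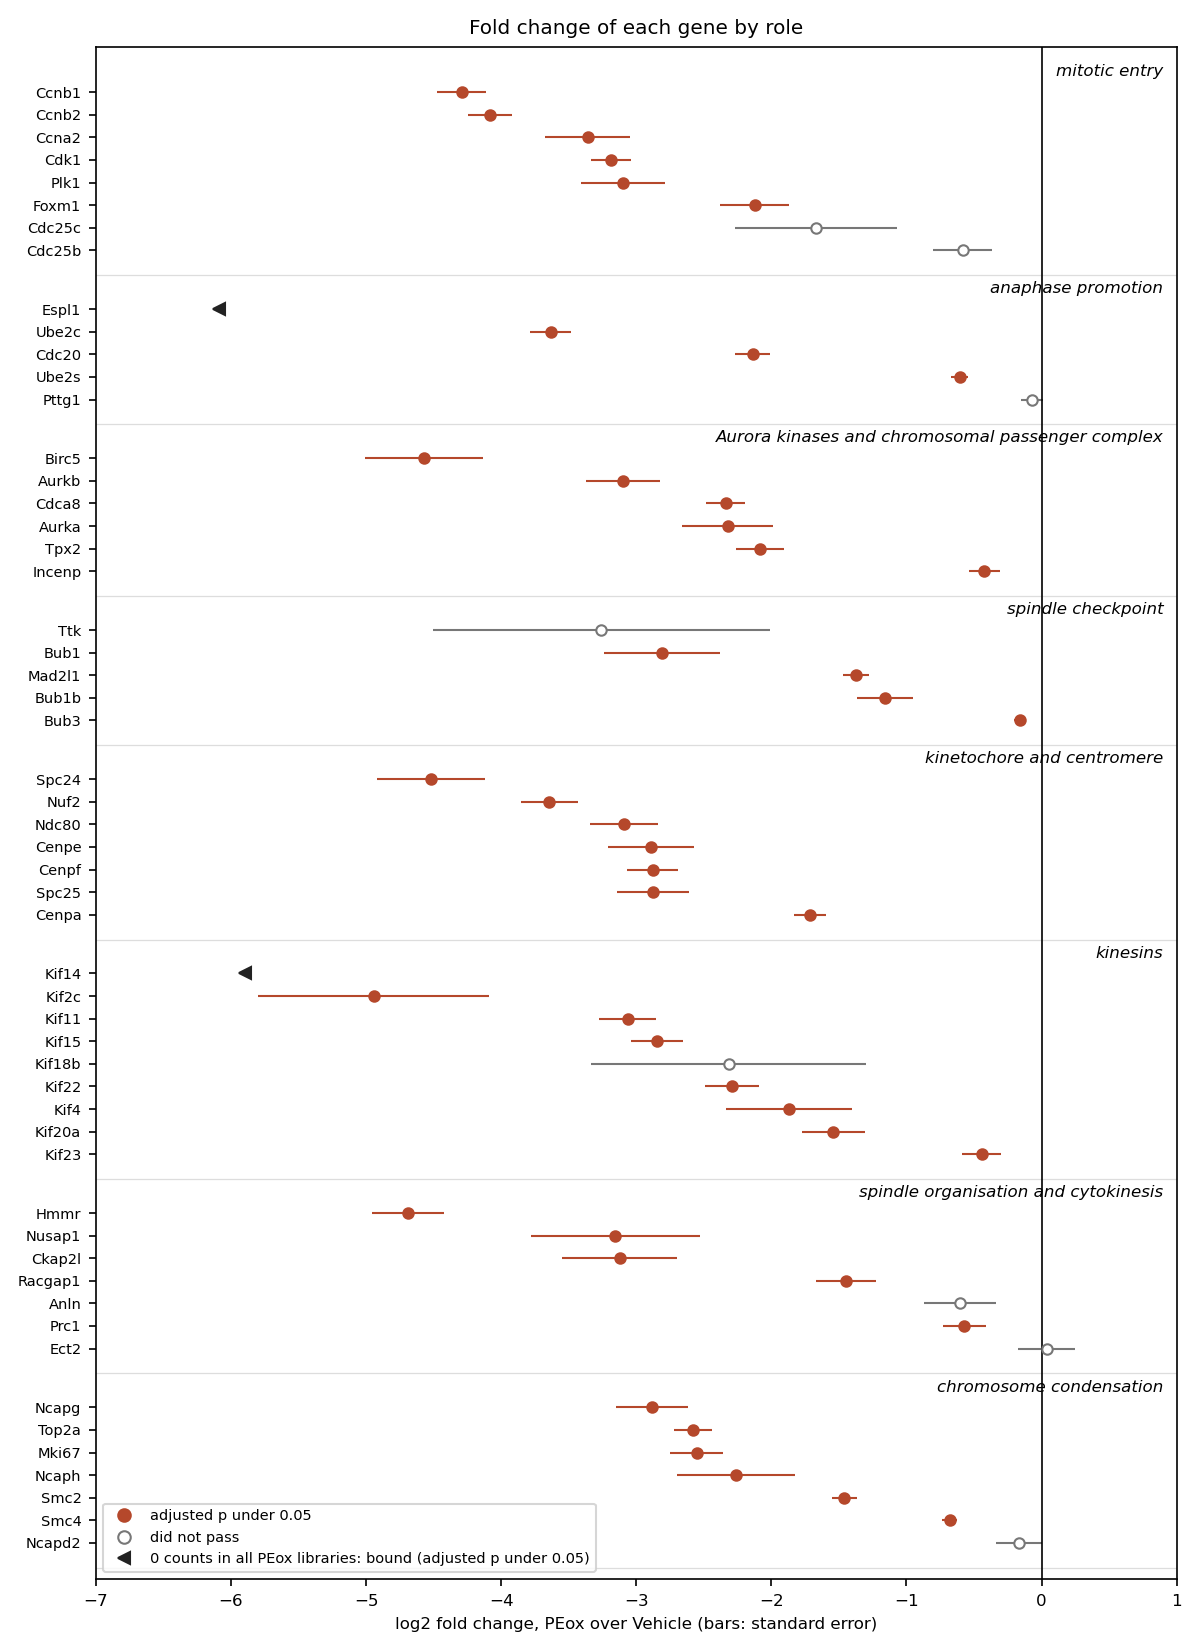
Log2 fold change of each gene, PEox over Vehicle, with its standard error, by role; filled red points passed the test, open grey points did not, and black triangles mark the bound for Espl1 and Kif14, which had 0 counts in all PEox libraries. Kif2c, Hmmr, Birc5, Spc24 and the B cyclins lie under -4, and Bub3, Pttg1, Ncapd2 and Ect2 lie near 0.

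Genes of spindle organisation and cytokinesis were lower in 5 of 7 cases, with a median log2 fold change of -1.45. Hmmr, whose product anchors microtubules at spindle poles, had 0.612, 0.744 and 0.413 CPM in PEox and 17.3, 14.1 and 14.4 CPM in Vehicle (-4.69 ± 0.26, SE; edgeR adjusted p = 7.87e-06). Nusap1, a microtubule bundler, had 4.01, 4.75 and 0.496 CPM in PEox and 28.4, 30.9 and 23.3 CPM in Vehicle (-3.16 ± 0.63; edgeR adjusted p = 0.00472), with PEox library 3 far under the other PEox libraries. Ckap2l, a spindle pole protein gene, fell by 3.12 ± 0.43 (edgeR adjusted p = 0.00067). The other 4 genes act in the central spindle and the cleavage apparatus. Racgap1, the partner of Kif23 in centralspindlin, fell by 1.45 ± 0.22 (edgeR adjusted p = 0.00132), with 9.09, 15.6 and 17.4 CPM in PEox and 38.7, 41.2 and 34.7 CPM in Vehicle. Prc1, the bundler of the central spindle, fell by 0.57 ± 0.16 (edgeR adjusted p = 0.0223), a call lost without PEox library 2 (0.0638) or 3 (0.0638), without Vehicle library 1 (0.0517), 2 (0.0911) or 3 (0.0616), and under library size scaling (edgeR adjusted p = 0.0607). Anln, the anillin scaffold of the contractile ring, had 2.84, 3.82 and 2.45 CPM in PEox and 4.66, 3.79 and 5.39 CPM in Vehicle and did not pass (-0.60 ± 0.27; edgeR adjusted p = 0.12). Ect2, the exchange factor that activates RhoA at the cleavage site, had 7.14, 9.69 and 9.60 CPM in PEox and 6.85, 10.1 and 8.76 CPM in Vehicle (0.04 ± 0.21; edgeR adjusted p = 0.912). Its groups overlapped fully, and its sign turned when libraries were left out.

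Genes of chromosome condensation kept 43.4% of their summed Vehicle level in PEox, and their subunits fell by unequal amounts. Top2a, the topoisomerase that untangles sister chromatids, had 10.4, 12.5 and 14.7 CPM in PEox and 66.8, 78.9 and 78.8 CPM in Vehicle (log2 fold change -2.58 ± 0.14, SE; edgeR adjusted p = 7.56e-06). Mki67, the gene of the proliferation antigen Ki-67 that coats mitotic chromosomes, had 4.01, 5.87 and 6.11 CPM in PEox and 29.5, 28.2 and 36.2 CPM in Vehicle (-2.55 ± 0.20; edgeR adjusted p = 3.32e-05). Both proliferation markers were thus at 16.7% and 17.0% of their Vehicle means. Within condensin I, Ncapg fell by 2.88 ± 0.27 (edgeR adjusted p = 8.57e-05) and Ncaph by 2.26 ± 0.44 (edgeR adjusted p = 0.00408). The ATPase subunits shared with condensin II fell less: Smc2 had 23.9, 24.5 and 28.0 CPM in PEox and 66.4, 69.9 and 73.7 CPM in Vehicle (-1.46 ± 0.093; edgeR adjusted p = 1.37e-05), and Smc4 had 105.2, 106.1 and 101.8 CPM in PEox and 164.9, 163.1 and 174.0 CPM in Vehicle (-0.68 ± 0.053; edgeR adjusted p = 3.76e-05). Ncapd2, the remaining condensin I subunit, did not pass, with 13.8, 20.8 and 20.6 CPM in PEox and 21.4, 19.4 and 21.0 CPM in Vehicle (-0.16 ± 0.17; edgeR adjusted p = 0.518). The differences between subunits were not tested.

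Other genes of the pathway, from lists chosen with earlier results of these data known, were read beside the 54. Over all tested genes, 18.8% were lower and 18.3% higher. Of 34 other kinetochore genes 24 were lower, 3 higher and 7 did not pass, with a median log2 fold change of -1.44. Pmf1, a subunit of the Mis12 complex, had 17.2 ± 1.72 CPM in PEox and 61.7 ± 0.503 CPM in Vehicle (SD, n = 3 each; edgeR adjusted p = 6.19e-06), and Kntc1, a checkpoint protein of the outer kinetochore, dropped by 3.89. The centromere network genes Cenpm and Cenpk dropped by 3.69 and 2.97. Zwint, Mis12 and Zw10 went the other way, by 0.42, 0.49 and 0.29. Zwint, a kinetochore linker gene that is also transcribed in cells that do not divide, had 243.2 ± 11.1 CPM in PEox and 182.4 ± 11 CPM in Vehicle (SD, n = 3 each; edgeR adjusted p = 0.00101). The call of Mis12 was lost without PEox library 1 (edgeR adjusted p = 0.0648) or Vehicle library 2 (0.0639). For Zw10 the call was lost without PEox library 2 or 3 or any single Vehicle library (edgeR adjusted p up to 0.14). It was also lost with a block for replicate number (edgeR adjusted p = 0.0563) and with no low count filter (0.0629).

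Among 20 other mitotic regulators 14 were lower, 1 higher and 5 did not pass (median -0.94), beside 18.8% lower and 18.3% higher of all tested genes. Cks1b, a small subunit that docks Cdk1 to its substrates, dropped by 2.26, the kinase gene Pbk by 3.81, Pkmyt1, which restrains Cdk1, by 2.47, and Fbxo5, which inhibits the APC/C before mitosis, by 2.02. Mad2l1bp, for a protein that switches the checkpoint off, was higher by 0.22 (edgeR adjusted p = 0.0339), a call lost whichever library was left out (edgeR adjusted p up to 0.0998). Of 22 other spindle and cytokinesis genes 15 were lower, 0 higher and 7 did not pass; without Vehicle library 3 the lower genes numbered 8. Pimreg, Tacc3, Dlgap5 and Spag5, the 4 genes of this list with the smallest p-values, dropped by 4.58, 2.46, 2.88 and 2.13.

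Subunits that serve the APC/C and cohesin throughout the cycle moved in both directions. Of 14 APC/C core subunits 4 were lower, 3 higher and 7 did not pass, with a median log2 fold change of -0.08. Anapc15, Anapc11 and Anapc5 dropped by 1.26, 0.54 and 0.52, while Anapc4, Cdc23 and Anapc2 rose by 0.71, 0.57 and 0.39. Of 14 genes of cohesin and condensin II 3 were lower, 4 higher and 7 did not pass (median -0.10). Cdca5, for the cohesin protector sororin, dropped by 3.19 and the condensin II gene Ncapg2 by 1.81, whereas Ncaph2 dropped by only 0.32 and the cohesin genes Stag1 and Pds5a rose by 0.61 and 0.53. The shares called lower in these 2 lists were 28.6% and 21.4%, beside 85.2% of the 54 mitosis genes and 18.8% of all tested genes.

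Regulators upstream of mitosis were read in the same way, again beside 18.8% lower and 18.3% higher of all tested genes. Of the 16 MuvB, B-Myb and E2F factor genes 8 were lower, 3 higher and 5 did not pass (median -0.26; 5 lower under library size scaling). E2f1, an activator of cell cycle genes, dropped by 2.09, with 10.4 ± 1.45 CPM in PEox and 44.2 ± 4.52 CPM in Vehicle (SD, n = 3 each). E2f7 and E2f8, repressors that are themselves E2F targets, dropped by 2.90 and 2.40. E2f6, another repressor, rose by 1.03 (edgeR adjusted p = 0.000209), and the MuvB subunit genes Lin52 and Lin54 rose by 0.75 and 0.53, the call of Lin54 being lost without PEox library 3 or any single Vehicle library (edgeR adjusted p up to 0.132). The Lin54 call was also lost with a block for replicate number (edgeR adjusted p = 0.0785), no low count filter (0.0616) or the length and GC trend removed (0.0611). Among G1 cyclins and kinases 7 of 8 were lower (median -0.95): Ccnd3, the cyclin D3 gene, had 554.2 ± 17.4 CPM in PEox and 1211 ± 14.3 CPM in Vehicle (SD, n = 3 each; edgeR adjusted p = 8.88e-07), and Ccne1, Cdk4 and Cdk6 dropped by 3.03, 0.76 and 0.57. Of the CDK inhibitors and pocket proteins, 4 of 9 tested genes were higher and 3 lower, beside 18.3% and 18.8% of all tested genes. Cdkn1a, the p21 inhibitor gene, rose by 0.27 (edgeR adjusted p = 0.00165), with 685.1 ± 27.9 CPM in PEox and 570.1 ± 9.82 CPM in Vehicle (SD, n = 3 each), and the pocket protein gene Rbl2 rose by 0.59, while Rbl1, Cdkn2c and Cdkn2d dropped by 0.59, 1.32 and 0.46. With the trend on transcript length and GC content removed, Cdkn2d did not pass (edgeR adjusted p = 0.584). All 15 DNA replication genes were lower (median -1.59); Mcm5 and Rrm2, among the 4 with the smallest p-values, dropped by 2.28 and 3.05.

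**Figure D5:**
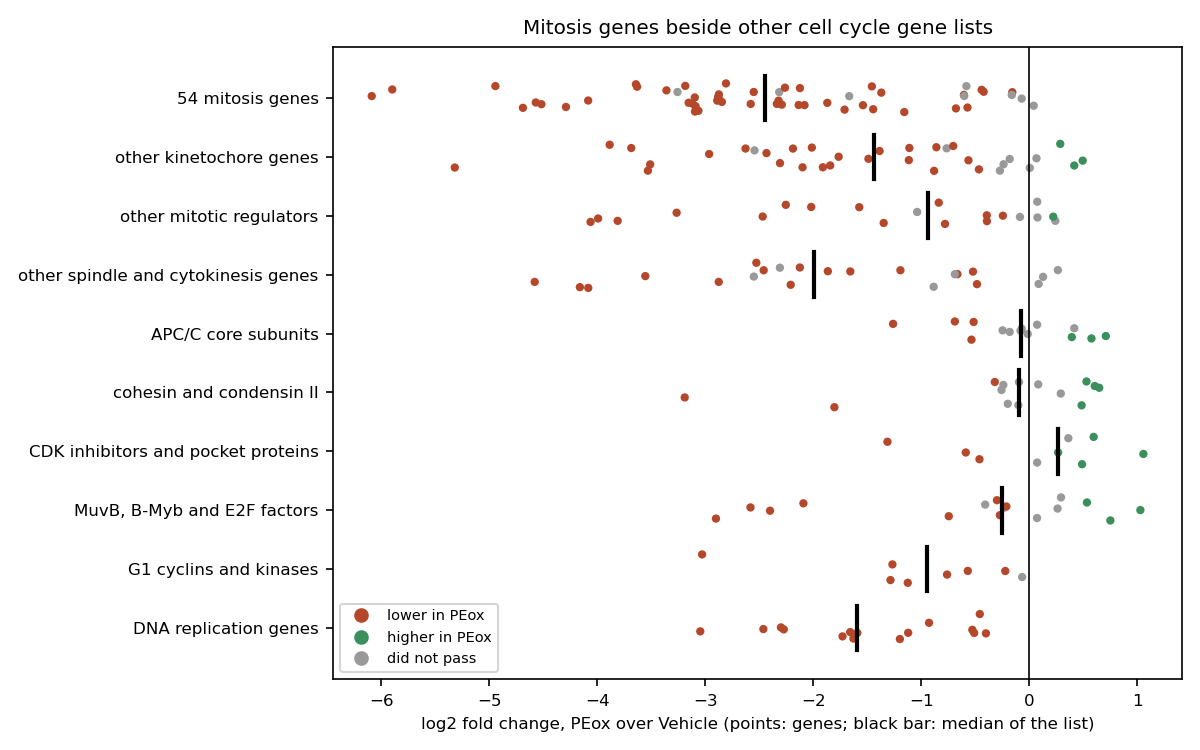
Log2 fold change of each tested gene, PEox over Vehicle, for the 54 mitosis genes and 9 other lists (points genes, coloured by call; black bar the list's median; Espl1 and Kif14 at their bound). Medians run from -2.45 for the mitosis genes to 0.26 for CDK inhibitors and pocket proteins.

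Lists of markers chosen for other cell types were read in the same libraries, where 18.8% of all tested genes were lower and 18.3% higher. Whether ILC3s gave some of the reads of these markers was not tested. The 10 B and plasma cell markers summed to 44.1 to 48.0 CPM in PEox and 287.6 to 307.9 CPM in Vehicle, with 9 lower, 0 higher and no defining marker at 0 throughout PEox. Mast cell and basophil markers summed to 19.8 to 25.6 CPM in PEox and 154.8 to 161.0 CPM in Vehicle, 7 of 10 lower, with Mcpt8 and Prss34 at 0 in all PEox libraries. NK cell and ILC1 markers summed to 58.7 to 61.9 CPM in PEox and 164.1 to 173.5 CPM in Vehicle, 5 of 6 tested lower; Klra8 was not tested, with counts in Vehicle library 3 alone. T cell markers summed to 44.3 to 56.1 CPM in PEox and 107.8 to 122.7 CPM in Vehicle, 5 of 8 lower, with Cd8a at 0 in PEox. Cd4 was called higher although its groups overlapped, with 17.47, 16.8 and 9.98 CPM in PEox and 7.414, 10.54 and 7.425 CPM in Vehicle. Myeloid markers summed to 117.8 to 167.8 CPM in PEox and 224.8 to 246.1 CPM in Vehicle, 4 of 12 lower and 0 higher, with Siglech at 0 in PEox. Erythroid markers were higher, 5 of 8, at 5121 to 5808 CPM in PEox and 2755 to 2802 CPM in Vehicle, and stromal and endothelial markers summed to 279.3 to 300.8 CPM in PEox and 201.1 to 227.4 CPM in Vehicle. Within that list Col1a1 and Col3a1 were higher, by 1.27 and 2.17, whereas Acta2 was lower, with 20.6 ± 1.87 CPM in PEox and 75.7 ± 0.799 CPM in Vehicle (SD, n = 3 each; log2 fold change -1.88), and 2 of 5 tested genes did not pass. The PEox sum was 14.6% of the Vehicle sum for mast cell and basophil markers and 15.5% for B and plasma cell markers. It was 35.9% for NK cell and ILC1, 44.5% for T cell and 60.2% for myeloid markers. For the 54 mitosis genes it was 42.7%, and 24.2% for the 50 without Bub3, Ube2s, Smc4 and Pttg1. Such sums follow the most abundant genes of a list. Median log2 fold changes were, in that order of cell types, -2.58 (genes at 0 in PEox at their bound), -2.45, -1.86, -1.62 and -0.65. The median of the 54 mitosis genes was -2.45. The part of these cells in the fall of mitosis genes was not tested.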

How the data were processed

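Per the labels' protocols, libraries were sequenced as paired reads on an Illumina NovaSeq instrument, cleaned with fastp and aligned with HISAT2 2.0.5. An edgeR version, 3.22.5, is listed in the submitters' processing notes. Counter, genome build, annotation and use of strand: not given in the sources used here. Values deposited by the authors were raw gene counts with no normalization, and 0 sample columns were left unused. Symbols came from a table of gene names that matched 55141 of 55401 identifiers; exonic lengths and overlaps came from GENCODE M21 which may not be the annotation the authors used. Of the 54 genes 18 share exonic bases with another gene there, Ube2c and Kif20a by over 20%. Kif4, Ncapg and Ccna2 share 15.1%, 13.4% and 12.5% with Pdzd11, Lcorl and Exosc9, which lie on the opposite strand and had more counts. Whether reads of such genes entered the members' counts was not tested. Counts were fitted in R 4.3.3 with edgeR 4.0.16 (filterByExpr, TMM factors 0.951 to 1.05, robust quasi-likelihood test, group as the single term), with Benjamini-Hochberg adjustment over 18253 genes at 0.05. Standard errors are the log2 fold change over the root of F; CPM use TMM factors. Within groups, libraries differed beyond sampling noise (chi-square per gene 15.6 to 35.4), and each was counted as 1 replicate. This does not show that the libraries came from different animals. The members and lists were chosen with earlier results of these data known. Every member could be named, and of each other list the 4 genes with the smallest p-values and those called against most of the list. Alternatives were RLE and library size scaling, no low count filter, a stricter filter (at least 5 CPM in 3 libraries), a block for replicate number, each library left out, DESeq2 1.42.0, limma-voom (limma 3.58.1) and a loess removal (span 0.5) of the trend on transcript length and GC content. On simulated data for this comparison (17984 genes), 49 of 50 raised and 46 of 50 lowered by 1 on the log2 scale were called, and 7 of 17784 unchanged genes. The simulated spread between replicates was set smaller than that of the data, whose common coefficient of variation was 34.5%. Changes were planted only in genes with ample counts. The simulation checks the code and does not give the sensitivity for the real counts. The summed level of the ILC3 markers is not reported here.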

Additional observations from a re-analysis of the deposited data

How the results depend on the processing

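Of the 54 mitosis genes 42 kept their direction and their side of the threshold in every one of the 14 alternatives that tested them; the other 12 were Cdc25b, Cdc25c, Pttg1, Incenp, Ttk, Bub3, Kif4, Kif18b, Kif23, Prc1, Ect2 and Ncapd2. The count of lower members was 48 with DESeq2, 50 with limma-voom, 45 with the length and GC trend removed and 43 of 47 tested with at least 5 CPM in 3 libraries, and 42 to 47 when single libraries were left out; 0 members were higher in any alternative. Their median log2 fold change was -2.31 under library size scaling, -2.35 with the stricter filter, -2.58 with limma-voom and -2.65 to -2.43 without single libraries. The summed level differed by -1.09 under library size scaling and by -1.23 to -1.22 without single libraries. Reversed signs were those of Pttg1 (0.064 with library size scaling, 0.20 with the trend removed), Ect2 (0.00 with the trend removed, -0.04 and -0.02 without PEox library 2 or 3, -0.10 to 0.175 over all single libraries left out, the lowest without Vehicle library 1) and Ncapd2 (-0.266 to 0.003, the highest without PEox library 1), none of them called. Lower genes numbered 5 among MuvB, B-Myb and E2F factors under library size scaling, 5 in cohesin and condensin II with the trend removed, and 8 to 15 among other spindle and cytokinesis genes without single libraries. The causes were not tested. Replicate numbers did not pair the libraries (correlations of deviations -0.006 to 0.014), and a replicate block gave 47 lower members, a median of -2.58 and 6159 genes called, against 6775. The coefficient of variation of members had a median of 23.6% in PEox and 9.40% in Vehicle.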
